A study of Homo sapiens with 30 samples.

Results

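The comparison described here sets the 2 arrays labelled RAF 24 h against the 2 arrays labelled RAF T0. They were chosen by their sample titles, and are 4 of the 30 arrays of the series, which holds 12 RAF-labelled arrays in all. The cells were WI-38, a long-used human line of diploid fibroblasts from lung, and carried a doxycycline-inducible RAF. The RAF 24 h cells were taken 24 h after doxycycline was added at 100 ng/ml, and the RAF T0 cells before it. Both groups carried the inducible construct and were grown in 3% oxygen and 5% carbon dioxide. The replicative arrays, used here only for comparison of levels, came from WI-38 cells driven to exhaustion under 21% oxygen, with their own T0. No RAF-labelled group was kept for 24 h without doxycycline, so the oncogene, the drug and time in culture cannot be told apart. The labels do not say which RAF gene the construct held, or whether the line was a single clone. Total RNA was measured on Affymetrix HTA 2.0 arrays, and the study's design text calls the 2 replicates of each RAF time biological. Because RNA was taken from whole cultures, fewer cells of a kind and less RNA per cell cannot be told apart.

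RAF is the kinase that passes a signal from RAS to MEK and ERK. ERK activity switches on immediate early genes such as FOS and EGR1, and also genes such as DUSP6 and SPRY4 that dampen the pathway. A sustained RAF signal in normal fibroblasts is known to drive oncogene-induced senescence, in which cells stop dividing, raise cyclin-dependent kinase inhibitors and secrete inflammatory cytokines and proteases, the senescence-associated secretory phenotype (SASP). AP-1, the factor family of FOS and JUN proteins, is a known regulator of that programme, and the series was built around it.

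Levels are the deposited values, read as log2 intensities since their log base is not stated, so that a difference of 1 is taken as a doubling. The array values came in steps of 0.1, and the median of every array was 5.5. Partner arrays had r = 0.993 at 24 h and 0.9951 at T0 over all features, and RAF 24 h arrays set against RAF T0 arrays had r between 0.9882 and 0.9892. Both RAF T0 arrays lay closer to an array labelled replicative 264 h (r = 0.9914 and 0.9917) than to any other RAF-labelled array (r up to 0.9892). Both RAF 24 h arrays lay closest, after each other, to an array labelled RAF 72 h (r = 0.9928 and 0.993). The labels were followed throughout. Whether the RAF T0 arrays stand where an uninduced culture would stand was not tested. Nor was it tested whether the RAF 12 h and replicative T0 labels are as intended.

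Of 52329 features tested with limma, 3089 passed at an adjusted p under 0.05, which is 5.90% of them. Of these, 1382 were higher in the RAF 24 h arrays (2.64%) and 1707 were lower (3.26%). Most differences were small: the median size among those that passed was 0.4, and 34 rises and 101 falls reached 2-fold. With 1 feature per named gene, 1747 of 19912 genes passed (8.77%), 684 of them higher (3.44%) and 1063 lower (5.34%). The last feature to pass had an adjusted p of 0.0496 and the first that did not had 0.0512. The 2 groups did not overlap for 35.2% of features, with both 24 h arrays above both T0 arrays in 9530 and below them in 8905. With 2 arrays against 2, a random order of the arrays would separate the groups at a share of similar size. Non-overlap in a single gene therefore carries little weight on its own. These counts rest on few arrays: with any 1 of the 4 arrays left out, between 1195 and 1378 features passed. Each of the 4 arrays lowered the count by more than 1.5 times in this way. Of the 161 named genes that passed, 51 to 65 lost the call in these fits, most of them with differences under 0.6, and none changed direction.

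**Figure D1:**
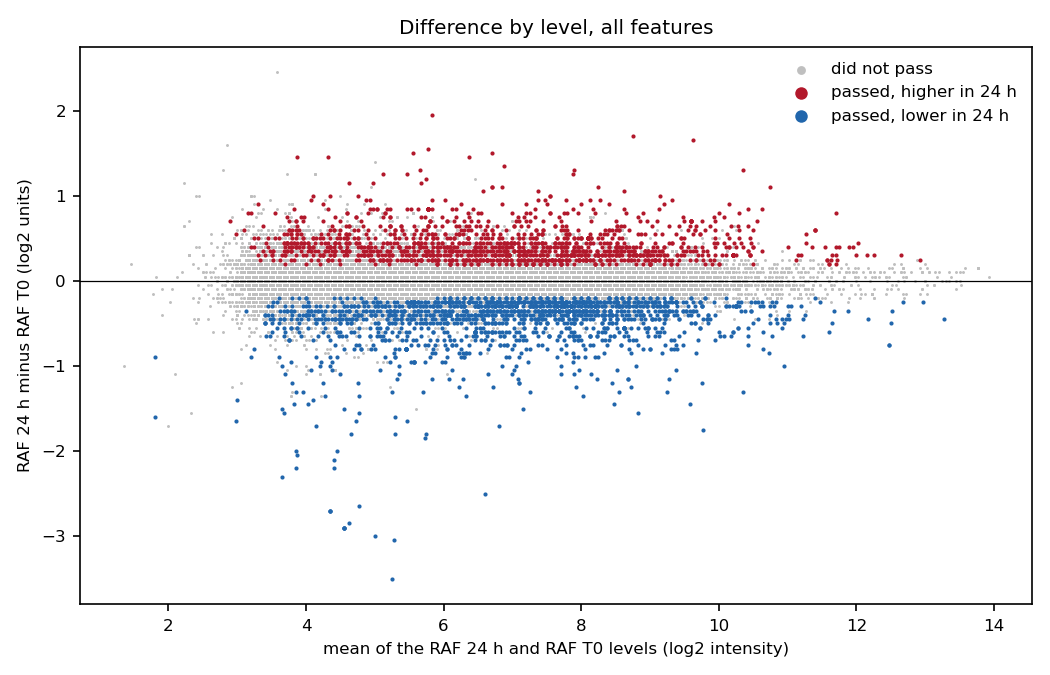
Each point is 1 of 52329 features, with the mean of the RAF 24 h and RAF T0 levels (log2 intensity) on the horizontal axis and the difference, RAF 24 h minus RAF T0 (log2 units), on the vertical axis. Red points passed the test and were higher at 24 h (1382), blue points passed and were lower (1707), grey points did not pass; the largest falls lie at low levels.

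The level of the induced construct was not analysed here. ARAF, one of the RAF kinases, had 8.2 and 8.2 in the RAF 24 h arrays, against 8.2 and 8.3 in the RAF T0 arrays, a difference of -0.05 (limma, adjusted p = 0.615).

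Of 25 measured genes of ERK output and feedback, 3 rose and 1 fell (16%, against 8.77% of all named genes), with a median difference of 0.05, against a median of 0 over all named genes. SPRY1, a feedback inhibitor of receptor tyrosine kinase signalling, had 7.7 and 7.6 at 24 h, against 6.9 and 6.8 at T0, and rose by 0.80 (SE 0.06, limma adjusted p = 0.000973). SPRY4, its relative, had 7.9 and 7.9 at 24 h, against 7.4 and 7.4 at T0, a rise of 0.50 (limma, adjusted p = 0.00344). In both genes the pairs of arrays stood clear of each other. ETV1, an ETS factor, rose by 0.35, and PHLDA1, an ERK-responsive gene, fell by 0.35. DUSP6, the phosphatase that inactivates ERK, had 8.4 and 8.4 at 24 h, against 8.3 and 8.2 at T0, and did not pass (limma, adjusted p = 0.126). EGR1 had 10.0 and 10.2 at 24 h, against 9.9 and 9.8 at T0, and did not pass either (limma, adjusted p = 0.128). The DUSP6 and EGR1 arrays did not overlap between groups, but the gaps were 0.1 wide, the smallest step the values can show. Of 14 measured components of the MAP kinase cascade, 1 passed (7.14%, against 8.77%): SOS1, an exchange factor for RAS, fell by 0.25. With 1 of the 4 arrays left out, SOS1 passed in no fit, and ETV1 and PHLDA1 in 1 fit each.

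Among AP-1 and related factors, 1 of 19 rose and 1 fell (10.5%, against 8.77% of all named genes), with a median difference of -0.05. FOS, the founding AP-1 subunit, had 8.1 and 8.4 at 24 h, against 7.7 and 7.6 at T0, and rose by 0.60 (SE 0.12, limma adjusted p = 0.0273). The groups did not overlap, but FOS passed in 1 of the 4 fits that left out an array, only the one without RAF 24 h replicate 1. The other AP-1 genes fixed for naming stayed within 0.15 of T0: FOSL1 had 7.8 and 7.9 at 24 h, against 8.0 and 7.9 at T0. FOSL2 differed by -0.15, JUN by -0.15, JUNB by -0.10 and ATF3 by 0, and none passed (limma, adjusted p from 0.126 to 1). MYC, a growth-promoting factor downstream of many mitogens, had 7.3 and 7.3 at 24 h, against 7.3 and 7.5 at T0 (limma, adjusted p = 0.502). MAF, a related bZIP factor, fell by 0.30. Between 0 and 1 member of this list passed with 1 array left out.

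Of the genes that mark senescence few rose, as was so for all named genes, of which 3.44% rose and 5.34% fell. Of 21 SASP cytokines and chemokines, none rose and 1 fell (4.76% passed, against 8.77% of all named genes). The list is thus not set apart by having few rises. CCL2, a monocyte attractant, had 10.3 and 10.3 at 24 h, against 11.1 and 11.2 at T0, and fell by 0.85 (SE 0.09, limma adjusted p = 0.00344), with both pairs tight and far apart. IL1A had 4.1 and 4.0 at 24 h, against 3.9 and 3.8 at T0, and IL1B had 4.6 and 4.5 at 24 h, against 4.6 and 4.7 at T0; these upstream cytokines of the programme lie below the array median. IL6 had 6.2 and 6.3 at 24 h, against 6.5 and 6.3 at T0, and CXCL8 had 4.4 and 4.7 at 24 h, against 4.9 and 4.8 at T0. None of the 4 passed (limma, adjusted p from 0.126 to 0.531). At this number of arrays a small difference in them may have been missed.

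Of 27 SASP proteases, inhibitors and growth factors 7 fell and 2 rose, against 5.34% and 3.44% of all named genes. Their median difference was 0. IGFBP3, which binds insulin-like growth factors, had 8.8 and 8.7 at 24 h, against 9.6 and 9.6 at T0, and fell by 0.85 (limma, adjusted p = 0.00344). TFPI2, a serine protease inhibitor, fell by 0.75, and FGF7 and SERPINE2 each fell by 0.65. TIMP3, an inhibitor of metalloproteinases, had 9.9 and 9.9 at 24 h, against 9.3 and 9.2 at T0, a rise of 0.65 (limma, adjusted p = 0.00202). PLAUR, the urokinase receptor, rose by 0.35. MMP1, the interstitial collagenase, had 9.4 and 9.4 at 24 h, against 9.1 and 8.5 at T0, and did not pass (limma, adjusted p = 0.104). Its T0 arrays lay 0.6 apart and its 24 h arrays were equal. Between 4 and 6 members of this list passed with 1 array left out, fewest without RAF 24 h replicate 1.

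Of 18 cyclin-dependent kinase inhibitors, D-type cyclins and senescence-associated nuclear proteins, 3 fell and none rose, against 5.34% and 3.44% of all named genes. CCND2, cyclin D2, which drives entry into the cycle, had 8.7 and 9.1 at 24 h, against 10.6 and 10.7 at T0. Its fall of 1.75 (SE 0.13, limma adjusted p = 0.00088) amounted to a level 3.36-fold higher at T0. CDKN1A, the p21 inhibitor, had 9.0 and 8.9 at 24 h, against 9.3 and 9.3 at T0, and fell by 0.35 (limma, adjusted p = 0.00488). CDKN2A, which encodes p16 and ARF, had 6.0 and 6.0 at 24 h, against 6.3 and 6.2 at T0, and fell by 0.25 (limma, adjusted p = 0.0372), a call lost in every fit that left out 1 of the 4 arrays. These inhibitors stood lower, not higher, in the RAF 24 h arrays, by small amounts. CDKN2B had 7.0 and 7.1 at 24 h, against 7.1 and 7.0 at T0, and CCND1 had 11.8 and 11.7 at 24 h, against 11.8 and 11.9 at T0; both overlapped. LMNB1, lamin B1 of the nuclear envelope, had 5.8 and 5.6 at 24 h, against 5.1 and 5.4 at T0 (limma, adjusted p = 0.111). Among 23 p53 targets 4 fell and none rose, against 5.34% and 3.44% of all named genes. RRM2B fell by 0.45, CDKN1A as above, and GADD45A and TNFRSF10B by 0.25 each. These last 2 lost the call in several alternative fits, among them the one with only the 4 arrays. At 24 h, 12 of the 23 were higher than at 12 h and none was lower (limma, adjusted p under 0.05).

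A group of mitotic genes rose at 24 h. Of 36 measured genes of G2 and mitosis, 9 rose and 1 fell, against 3.44% and 5.34% of all named genes, and 33 had the higher mean at 24 h. Their median difference was 0.50. MKI67, the proliferation antigen Ki-67, had 6.5 and 6.2 at 24 h, against 5.1 and 5.2 at T0, and rose by 1.20 (SE 0.13, limma adjusted p = 0.00344). TOP2A, the topoisomerase that untangles chromosomes, had 6.4 and 6.2 at 24 h, against 4.7 and 4.9 at T0, a rise of 1.5 (SE 0.18, limma adjusted p = 0.00488). ANLN, a scaffold of the cleavage furrow, had 7.6 and 7.3 at 24 h, against 6.0 and 5.9 at T0, and rose by 1.5 (SE 0.16, limma adjusted p = 0.00314). In these genes the lower 24 h array stood clear of the higher T0 array, which was a condition for being named among the largest rises. DLGAP5, a spindle protein, rose by 1.15 and CENPE, a kinetochore motor, by 1.0. DLGAP5 passed in none of the 4 fits that left out an array, and 4 to 6 members of the list passed in those fits. ECT2, which directs cytokinesis, fell by 0.20, a call lost in each of those fits.

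The rise of the mitotic genes was small beside their range over the RAF course. Their median level was 5.12 at T0, climbed to 7.9 at 12 h, dropped back to 5.65 at 24 h and then stood at 6.0, 6.3 and 7.45 at the 48 h, 72 h and 96 h labels, in that order. The whole list, 36 of 36, was lower at 24 h than at 12 h at an adjusted p under 0.05 (limma), where 10.6% of named genes were. MKI67 had a mean of 6.35 at 24 h, against 9.30 at 12 h, a difference of -2.95 (limma, adjusted p = 3.35e-05). The RAF 24 h arrays thus stood near the low T0 level of this list and far from the 12 h level.

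Promoters of 4 of the mitotic genes with the largest rises are shown because they hold the cell cycle homology region (CHR), the element through which the DREAM and MuvB complexes hold mitotic genes down outside G2. Each line gives 100 bases upstream of the gene's start, 5′ to 3′ on the gene's own strand, from RefSeq (GRCh38.p14). Capitals mark the CHR letters TTTGAA, or TTCAAA where the match is on the other strand. ANLN lies at chr7:36389762-36389861 on the plus strand, MKI67 at chr10:128126424-128126523, TOP2A at chr17:40418007-40418106 and DLGAP5 at chr14:55191636-55191735, all 3 on the minus strand.
ANLN: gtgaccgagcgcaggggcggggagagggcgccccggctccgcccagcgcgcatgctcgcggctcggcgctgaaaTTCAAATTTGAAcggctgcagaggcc
MKI67: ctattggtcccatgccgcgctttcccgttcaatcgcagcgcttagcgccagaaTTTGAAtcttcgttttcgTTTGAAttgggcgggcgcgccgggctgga
TOP2A: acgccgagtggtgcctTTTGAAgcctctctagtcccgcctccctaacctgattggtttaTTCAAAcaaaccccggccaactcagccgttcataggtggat
DLGAP5: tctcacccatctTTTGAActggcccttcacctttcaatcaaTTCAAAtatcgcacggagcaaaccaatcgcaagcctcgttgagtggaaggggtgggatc
In ANLN both strands match side by side, with first bases at -26 and -20 from the start. The MKI67 matches begin at -47 and -29, those of TOP2A at -194 and -151, and those of DLGAP5 in its printed line at -138 and -109. A further DLGAP5 match begins at position 4, past the start and outside the printed line. Over the whole window, which runs from 250 bases before to 50 after the start, TTTGAA on either strand was present in 26 of 36 promoters of the list (72.2%) and in 15.2% of all 35093 promoters. CCAAT on either strand was present in 28 of 36 (77.8%), against 34.6% of all. Of the 9 promoters of members that rose, 7 held TTTGAA and 7 held CCAAT (77.8% each), shares near those of the whole list. The 36 promoters belong to the 30 genes of the list that the table names. Motifs were searched separately and may overlap. A match describes letters and shows no binding.

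The S phase genes that rose did so by less than the leading mitotic genes. Of 36 measured, 6 rose and none fell, against 3.44% and 5.34% of all named genes, with a median difference of 0.15. At 24 h, 35 of the 36 were lower than at 12 h (limma, adjusted p under 0.05), where 10.6% of named genes were. DTL, which directs destruction of replication licensing factors, had 5.3 and 5.4 at 24 h, against 4.4 and 4.6 at T0, and rose by 0.85 (limma, adjusted p = 0.00569). BRIP1, a DNA repair helicase, rose by 0.75, MCM7, a subunit of the replicative helicase, by 0.40, and RFC3, a clamp loader subunit, by 0.35. MCM7 and RFC3 passed in none of the fits that left out an array, and 2 or 3 members of the list did. Of 15 replication-dependent histone genes, H1-5 rose by 0.70 and H1-4 by 0.35, and the median difference was -0.05.

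**Figure D2:**
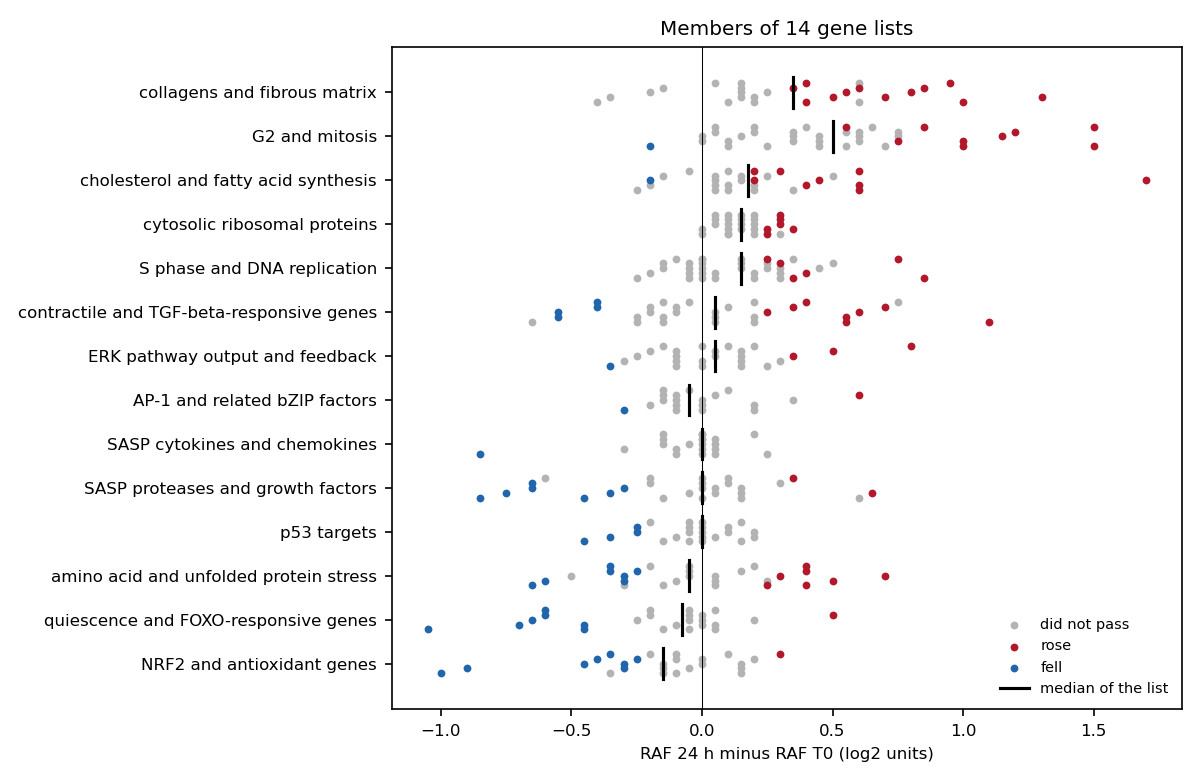
Each point is a measured member of 1 of 14 gene lists, placed by its difference, RAF 24 h minus RAF T0 (log2 units); red rose, blue fell and grey did not pass. The black bar is the list's median, at 0.50 for G2 and mitosis, 0.35 for collagens and fibrous matrix and -0.15 for NRF2 and antioxidant genes.

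The extracellular matrix genes held the highest share of rises among the lists. Of 27 collagens and fibrous matrix genes, 12 rose and none fell, against 3.44% and 5.34% of all named genes, with a median difference of 0.35, and 23 had the higher mean at 24 h. COL6A3, a chain of microfibrillar collagen VI, had 11 and 11 at 24 h, against 9.7 and 9.7 at T0, and rose by 1.30 (SE 0.08, limma adjusted p = 0.000657). BGN, the proteoglycan biglycan, had 9.8 and 9.8 at 24 h, against 8.8 and 8.9 at T0, a rise of 0.95 (limma, adjusted p = 0.000534). COL1A1, the main chain of collagen I, had 11 and 11.1 at 24 h, against 10.1 and 10.3 at T0, and rose by 0.85 (limma, adjusted p = 0.00488). These pairs did not overlap, which for COL6A3 was a condition of being among the largest rises, and its 24 h arrays were equal. TNC, tenascin C, had 9.4 and 9.9 at 24 h, against 8.8 and 8.5 at T0, and rose by 1.0 (limma, adjusted p = 0.0296), but it passed in 1 of the 4 fits without an array, the one without RAF 24 h replicate 1. Between 4 and 9 members passed in those fits, fewest without RAF 24 h replicate 2. COL6A3 was lower at 24 h than at 12 h, where its mean was 11.45.

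Of 31 contractile and TGF-beta-responsive genes, 8 rose and 4 fell, with a median difference of 0.05; 38.7% passed, against 8.77% of all named genes. ACTG2, smooth muscle gamma actin, had 7.3 and 7.2 at 24 h, against 6.2 and 6.1 at T0, and rose by 1.10 (SE 0.05, limma adjusted p = 0.000357). TAGLN, the actin-binding protein transgelin, had 9.2 and 9.2 at 24 h, against 8.5 and 8.5 at T0, a rise of 0.70 (limma, adjusted p = 0.000273). ACTA2, smooth muscle alpha actin, rose by 0.60 and LMOD1, which nucleates actin filaments in smooth muscle, by 0.55. These 4, the largest of the 8 rises, are actins and actin-binding proteins. At 12 h the means of ACTG2, TAGLN and ACTA2 were higher than at 24 h, at 7.6, 9.5 and 10.1, and that of LMOD1 was lower, at 7.4. The 4 that fell were FST, an activin antagonist, and ID2, a BMP-responsive inhibitor of differentiation factors, by 0.55 each, and BMP4 and ID1 by 0.40 each. BMP4 passed in none of the fits without an array, and FST and ID1 in 1 each.

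The ACTG2 promoter is shown because it holds matches to the CArG box, the element bound by serum response factor in contractile genes. The window lies at chr2:73892878-73892977 on the plus strand (RefSeq, GRCh38.p14), from -130 to -31 relative to the start, and capitals mark the CArG boxes.
ACTG2: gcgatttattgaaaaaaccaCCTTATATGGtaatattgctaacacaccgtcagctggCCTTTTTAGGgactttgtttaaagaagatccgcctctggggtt
The matches begin at -110 and -73. A CArG box was present in 2 of 48 promoters of the contractile list, in 1 of 8 promoters of its members that rose, and in 1.29% of all promoters.

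SCD had the largest rise of any named gene. SCD encodes the desaturase that makes oleic acid, and it had 9.7 and 9.5 at 24 h, against 7.8 and 8.0 at T0. The rise of 1.70 (SE 0.13, limma adjusted p = 0.00118) was 3.25-fold, and its level at 12 h was higher still, with a mean of 10.80. Of 28 cholesterol and fatty acid synthesis genes, 9 rose and 1 fell, against 3.44% and 5.34% of all named genes, with a median difference of 0.17. At 24 h, 17 of the 28 were lower than at 12 h and none was higher (limma, adjusted p under 0.05). Over T0, ACAT2 and HMGCS1, early enzymes of sterol synthesis, and FADS2, a fatty acid desaturase, each rose by 0.60. TM7SF2, a sterol reductase, fell by 0.20. Between 4 and 5 members passed with 1 array left out.

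The other large rises came from genes of varied function. SRGN, the granule proteoglycan serglycin, had 6.7 and 6.4 at 24 h, against 5.1 and 4.9 at T0, and rose by 1.55 (limma, adjusted p = 0.000962). B3GALT2, a galactosyltransferase, had 5.1 and 5.0 at 24 h, against 3.6 and 3.6 at T0, a rise of 1.45 (limma, adjusted p = 0.00344). GMFG, a regulator of actin branching, rose by 1.05, and CASS4, a focal adhesion scaffold, by the same amount, with CASS4 passing in 1 of the 4 fits that left out an array, the one without RAF 24 h replicate 1. DLL4, a Notch ligand, had 8.2 and 8.3 at 24 h, against 7.3 and 7.3 at T0, and rose by 0.95, while NOTCH3 rose by 0.30. The NOTCH3 call was lost in most of the 12 alternative fits, among them those with the replicate number as a block and with only the 4 arrays compared. The other 14 of 16 Notch pathway genes did not pass. RNU5D-1, a spliceosomal U5 RNA gene, rose by 1.25.

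**Figure D3:**
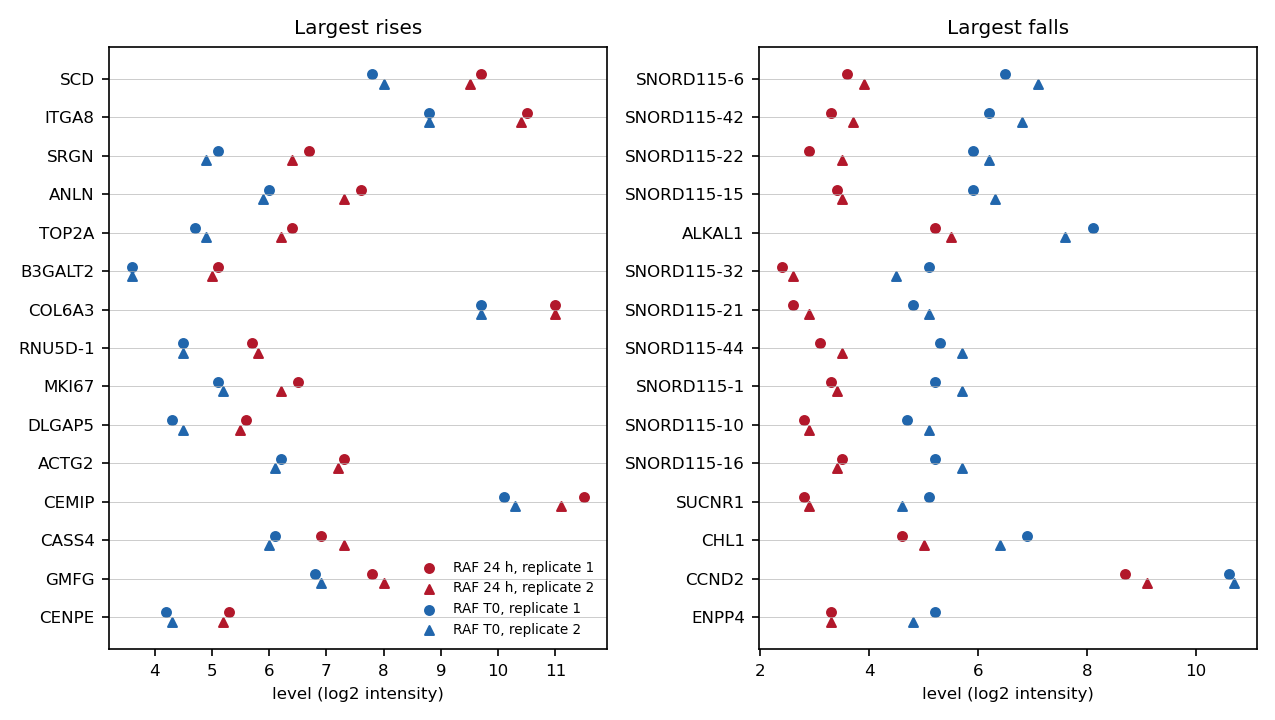
Levels (log2 intensity) of the 15 named genes with the largest rises and the 15 with the largest falls, with the 2 RAF 24 h arrays in red and the 2 RAF T0 arrays in blue, circles for replicate 1 and triangles for replicate 2. The genes were picked among those whose groups did not overlap, and 10 of the 15 falls are SNORD115 copies.

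Among named genes the deepest falls belonged to SNORD115, a run of near-identical box C/D small nucleolar RNAs in the imprinted Prader-Willi region, known chiefly from neurons. SNORD115-6 had 3.6 and 3.9 at 24 h, against 6.5 and 7.1 at T0, and fell by 3.05 (SE 0.21, limma adjusted p = 0.000766). SNORD115-42 had 3.3 and 3.7 at 24 h, against 6.2 and 6.8 at T0, and fell by 3.00 (limma, adjusted p = 0.000962). Of 14 measured copies 13 fell, with a median difference of -2.15; the copies are so alike that probes may read several of them, so they are not separate observations and each copy's value is uncertain. This family was picked out after its values were seen. The median copy was at 3.25 at 24 h, against 5.2 at T0, and at 2.42 at 12 h and 2.4 at 96 h. In the replicative course it stood at 3.70 at 264 h and 3.45 at 432 h. Under the other replicative labels it stood between 2.35 and 2.5, with 2.45 at replicative T0. RAF T0 was thus high and replicative T0 was not. The first principal component, the axis along which the arrays differed most, held 64.2% of the variance. On it the replicative T0 arrays lay at 63.33 and 65.07, and those of replicative 2112 h at 76.5 and 77.1. All 12 RAF arrays lay below 0, RAF T0 at -46.85 and -47.18. Whether the T0 groups are comparable baselines was not tested. All the 24 h levels of the SNORD115 copies lay below the array median of 5.5. No background call could be made here, so at levels this low, in these copies and in the other dim genes named, a difference may understate the change, and no fold is given. With 1 array left out, 12 or 13 copies passed. Only features with a mean of at least 5.5 entered a further fit, and no SNORD115 copy was among them.

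SNORD116 and SNORD114, families of imprinted small nucleolar RNAs as well, had smaller differences. Of 18 SNORD116 copies 10 fell, with a median difference of -0.60, and all 18 had the lower mean at 24 h. With 1 array left out, 1 to 3 copies passed. In the imprinted DLK1-MEG3 region, 13 of 43 SNORD113 and SNORD114 copies fell and 1 rose, and 7 to 10 passed in the fits without an array. SNORD114-12 had 8.8 and 8.9 at 24 h, against 10.2 and 10.4 at T0, and fell by 1.45 (limma, adjusted p = 0.00133). SNORD114-1 had 9.7 and 9.7 at 24 h, against 11 and 11 at T0, and fell by 1.30. Unlike SNORD115 at 24 h, these 2 copies stood well above the array median. Other copies of the SNORD114 and SNORD116 families did not: SNORD114-24 and SNORD116-12, for example, had 24 h means of 4.2 and 3.25. The one that rose, SNORD113-4, rose by 0.30.

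**Figure D4:**
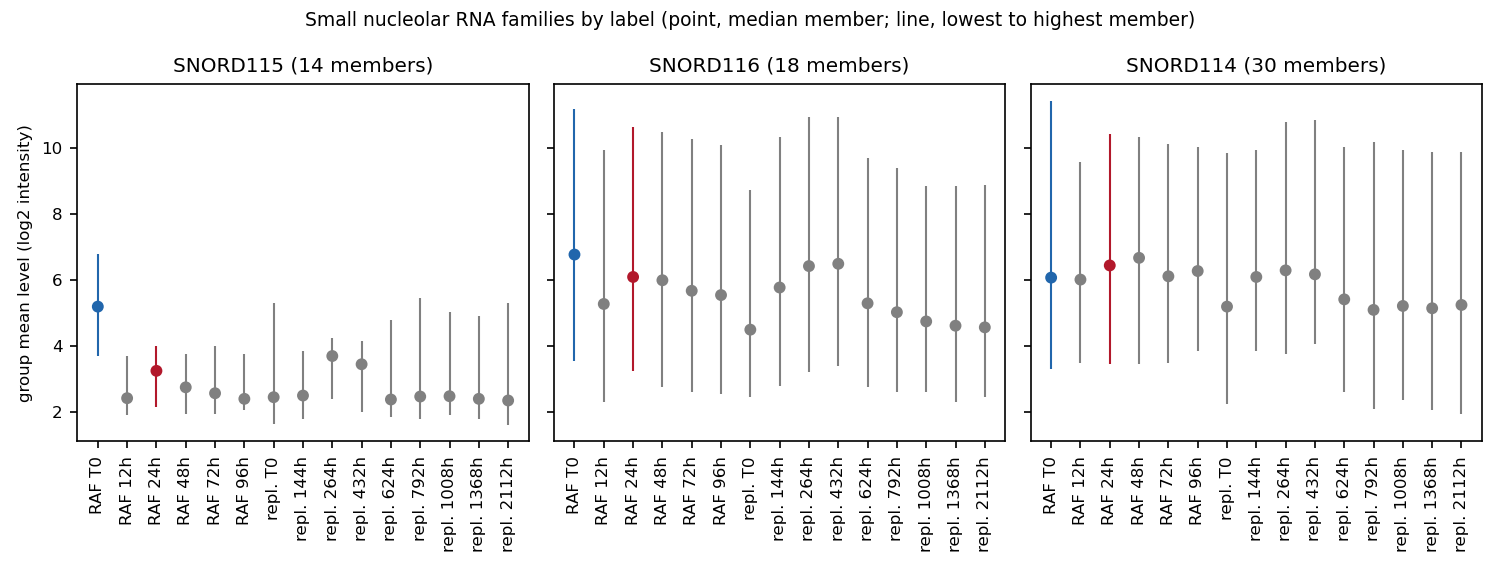
Group mean levels (log2 intensity) of SNORD115, SNORD116 and SNORD114 copies under each label of both courses; points are the median copy and lines run from the lowest to the highest copy. The median SNORD115 copy stands at 3.25 at RAF 24 h (red) and 5.2 at RAF T0 (blue).

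Other large falls were in single protein-coding genes. ALKAL1, a ligand of the ALK receptor, had 5.2 and 5.5 at 24 h, against 8.1 and 7.6 at T0, and fell by 2.50 (SE 0.18, limma adjusted p = 0.000867), with the 24 h levels at or below the array median of 5.5. SUCNR1, the succinate receptor, had 2.8 and 2.9 at 24 h, against 5.1 and 4.6 at T0; it passed as lower at 24 h, but with both groups below the array median the size of the fall is uncertain. CHL1, a neural cell adhesion protein, had 4.6 and 5.0 at 24 h, against 6.9 and 6.4 at T0, and fell by 1.85. The 3 genes shared low 24 h levels that stayed low through 96 h, with means of 4.95 for ALKAL1, 2.55 for SUCNR1 and 4.60 for CHL1. ENPP4, a membrane nucleotide hydrolase, fell by 1.70. VCAM1, an adhesion molecule induced by NF-kB, had 7.8 and 8.3 at 24 h, against 9.7 and 9.5 at T0, and fell by 1.55 (SE 0.23, limma adjusted p = 0.0119). It passed in 1 of the 4 fits without an array, the one without RAF 24 h replicate 2. PTGS2, cyclooxygenase 2, fell by 0.70, while NFKBIA, the NF-kB inhibitor, rose by 0.30, so that of 20 NF-kB genes 3 rose and 2 fell; between 0 and 2 passed without an array.

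Stress and metabolic lists fell or split. Of 25 NRF2 and antioxidant genes, 8 fell and 1 rose, against 5.34% and 3.44% of all named genes, with a median difference of -0.15. The median difference from T0 was larger at 12 h, at -0.45. At 24 h, 12 of the 25 were higher than at 12 h and 1 was lower (limma, adjusted p under 0.05). AKR1C2, an aldo-keto reductase, had 6.4 and 6.3 at 24 h, against 7.4 and 7.3 at T0, and fell by 1.0 (limma, adjusted p = 0.000962). AKR1C1, a close homologue whose signal may be shared, fell by 0.90, and NFE2L2, which encodes NRF2 itself, by 0.40. The NFE2L2 call was lost in most of the 12 alternative fits, among them those with the replicate number as a block and with only the 4 arrays compared. ME1, malic enzyme, rose by 0.30. Between 2 and 4 of this list passed without 1 array, fewest without RAF T0 replicate 2. Of 24 quiescence and FOXO-responsive genes 7 fell and 1 rose, a total of 33.3% against 8.77%, and 4 to 7 passed with 1 array left out. PDK4, which restrains pyruvate oxidation, had 4.3 and 4.8 at 24 h, against 5.7 and 5.5 at T0, and fell by 1.05 (limma, adjusted p = 0.011), a call lost without RAF T0 replicate 1 (3 of 4 fits kept it). ARRDC4 fell by 0.70 and SESN3 by 0.65, and KLF2 rose by 0.50.

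Amino acid and unfolded protein stress genes divided evenly, 7 up and 7 down of 28 (50%, against 8.77% of all named genes). Of those that rose, PSAT1, of serine synthesis, rose by 0.70, CHAC1, which breaks down glutathione, by 0.50, and ASNS, asparagine synthetase, and MTHFD2, of mitochondrial folate metabolism, by 0.40 each. Those that fell include chaperones of the endoplasmic reticulum: HSPA5, or BiP, had 11.3 and 11.3 at 24 h, against 11.9 and 11.9 at T0, and fell by 0.60 (limma, adjusted p = 0.00481). DNAJC3, its co-chaperone, fell by 0.65 and HYOU1 by 0.35. Between 4 and 6 passed with 1 array left out.

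Changes in translation genes were small. Of 27 cytosolic ribosomal protein genes 6 rose and none fell, against 3.44% and 5.34% of all named genes. Their median difference was 0.15, and 25 had the higher mean at 24 h. At 24 h, 15 of the 27 were lower than at 12 h (limma, adjusted p under 0.05), where 10.6% of named genes were. RPS12 had 9.9 and 9.8 at 24 h, against 9.5 and 9.5 at T0, a rise of 0.35 (limma, adjusted p = 0.00794). Of 27 RNA processing genes 5 rose and none fell; RBM3, a cold-inducible RNA-binding protein, rose by 0.75 and SRSF6, a splicing factor, by 0.50. Ribosome biogenesis genes split, with 2 of 26 up and 3 down. Fewer passed without 1 array: 1 to 3 ribosomal proteins, 2 or 3 RNA processing genes and 0 or 1 ribosome biogenesis genes.

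Elsewhere few genes passed, where 8.77% of all named genes did. Of 24 interferon-stimulated genes IFI6 alone passed, and fell by 0.60. ADM and SLC2A3 fell among 33 hypoxia and glycolysis genes, by 0.50 and 0.35. Among 38 respiratory chain subunits 2 rose and 2 fell, with a median difference of -0.03. Among 25 lysosome and autophagy genes 1 rose and 3 fell, with NPC1, a cholesterol exporter of lysosomes, down by 0.75. Of these 25, 13 were higher at 24 h than at 12 h and none was lower (limma, adjusted p under 0.05). BAG3 fell by 0.20 among 13 heat shock genes. Of 18 CCN and YAP-responsive genes, CCN4 rose by 0.60, and ANKRD1 fell by 0.75 and NT5E by 0.65. Of 24 circadian and glucocorticoid-responsive genes, 1 rose, BHLHE40 by 0.30, and 3 fell: MT1X by 0.60 and BHLHE41 and MT2A by 0.50 each. IFI6, BAG3 and BHLHE40 lost the call with any 1 of the 4 arrays left out, and ADM, CCN4, ANKRD1 and MT1X in 2 of those 4 fits.

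Markers of the cultured cells and of other cell types were compared next. Of 13 fibroblast markers 4 passed (30.8%, against 8.77% of all named genes), 3 higher and 1 lower: COL1A1 by 0.85, COL1A2 by 0.55 and VIM by 0.20, with TCF21, a fibroblast lineage factor, down by 0.70. Members moved in both directions, and the summed fibroblast marker level was 113.3 and 113.6 at 24 h, against 112.6 and 113.4 at T0. The 11 epithelial markers summed to 64.3 and 63.9 at 24 h, against 64.2 and 64.1 at T0, with OCLN down by 0.90 and KRT18 up by 0.25, the KRT18 call being lost without any 1 array. None of 10 endothelial markers passed (limma), with sums of 56.8 and 56.8 at 24 h, against 56.7 and 56.7 at T0. Of 7 leukocyte markers CD14 fell, with 6.8 and 6.8 at 24 h, against 7.5 and 7.5 at T0, a call lost with any 1 of the 4 arrays left out, and the list summed to 45.1 and 45.0 at 24 h, against 45.8 and 46.1 at T0.

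The RAF 24 h arrays were also set against the RAF times on either side. Of the 3089 features that passed between 24 h and T0, 2332 (75.5%) also passed in RAF 12 h minus T0 in the same direction. That 12 h comparison called 10165 of the 52329 features, and it shares the T0 arrays, so the overlap is fixed in part by them. For 1723 of the 3089 (55.8%) the 24 h mean lay between the T0 and 12 h means. Against RAF 12 h, 6584 features passed (12.6%), 3151 higher at 24 h and 3433 lower. Against RAF 48 h no feature passed with limma (0.00%), although 6145 had an unadjusted p under 0.05. A fit over all 30 arrays called 107 features between 48 h and 24 h, and one without dim features called 20.

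A smaller set stood outside both earlier times at 24 h: 416 features (0.795%) passed against T0 and against 12 h in the same direction, 226 higher and 190 lower. Both comparisons use the RAF 24 h arrays, so the overlap is fixed in part by them. Among the 416 were 41 (0.0784% of all features) that also passed in RAF 12 h minus T0 in the opposite direction. This group of genes was singled out after values were seen. ITGA8, an integrin subunit of contractile fibroblasts, had 10.5 and 10.4 at 24 h, against 8.8 and 8.8 at T0, and rose by 1.65 (SE 0.05, limma adjusted p = 0.000131). Its 12 h mean was 8.05, so the rise over 12 h was 2.40 (limma, adjusted p = 7.23e-06), and it stayed at 10.35 at 48 h and 10.30 at 72 h. CEMIP, which degrades hyaluronan, had 11.5 and 11.1 at 24 h, against 10.1 and 10.3 at T0, and rose by 1.10. Both genes stood at a plateau shared by 24, 48 and 72 h. By 96 h they were back near T0, ITGA8 with a mean of 9.1 (8.8 at T0) and CEMIP with 10.3 (10.2 at T0). CTHRC1 rose by 0.95, WFDC1 by 0.85, PSG5 by 0.80 and FLT1, a VEGF receptor, by 0.65. The basement membrane chain COL4A5 rose by 0.55, and SCN7A, RFTN2 and SEMA6A rose by 0.75, 0.60 and 0.60, with RFTN2 and SEMA6A passing in no fit that left out an array and SCN7A in 1.

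On the low side, SLIT2, a guidance ligand, had 5.8 and 5.5 at 24 h, against 7.1 and 6.9 at T0, and fell by 1.35 (SE 0.11, limma adjusted p = 0.00133), with a 12 h mean of 7.40. DKK1, a secreted WNT inhibitor, had 6.3 and 6.5 at 24 h, against 8.0 and 7.8 at T0, and fell by 1.5 (SE 0.12, limma adjusted p = 0.00119), with a 12 h mean of 7.30. CPA4, a carboxypeptidase, had 8.1 and 8.1 at 24 h, against 9.4 and 9.3 at T0, and fell by 1.25. All 3 are secreted proteins and stayed low at 48 and 72 h. PRSS12 fell by 0.90, KRTAP2-2 by 0.90, MYPN by 0.85, JAM2 by 0.80, SEMA3C by 0.75 and PRPS1 by 0.60. MT1CP, a metallothionein pseudogene, fell by 0.85. Of 14 measured metallothionein genes and pseudogenes, which bind zinc and copper and share much of their sequence, 10 fell, with a median difference of -0.40, and 2 to 10 passed with 1 array left out, fewest without RAF T0 replicate 1. MT2A had 12.2 and 12.3 at 24 h, against 12.8 and 12.7 at T0, and fell by 0.50 (limma, adjusted p = 0.00344).

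**Figure D5:**
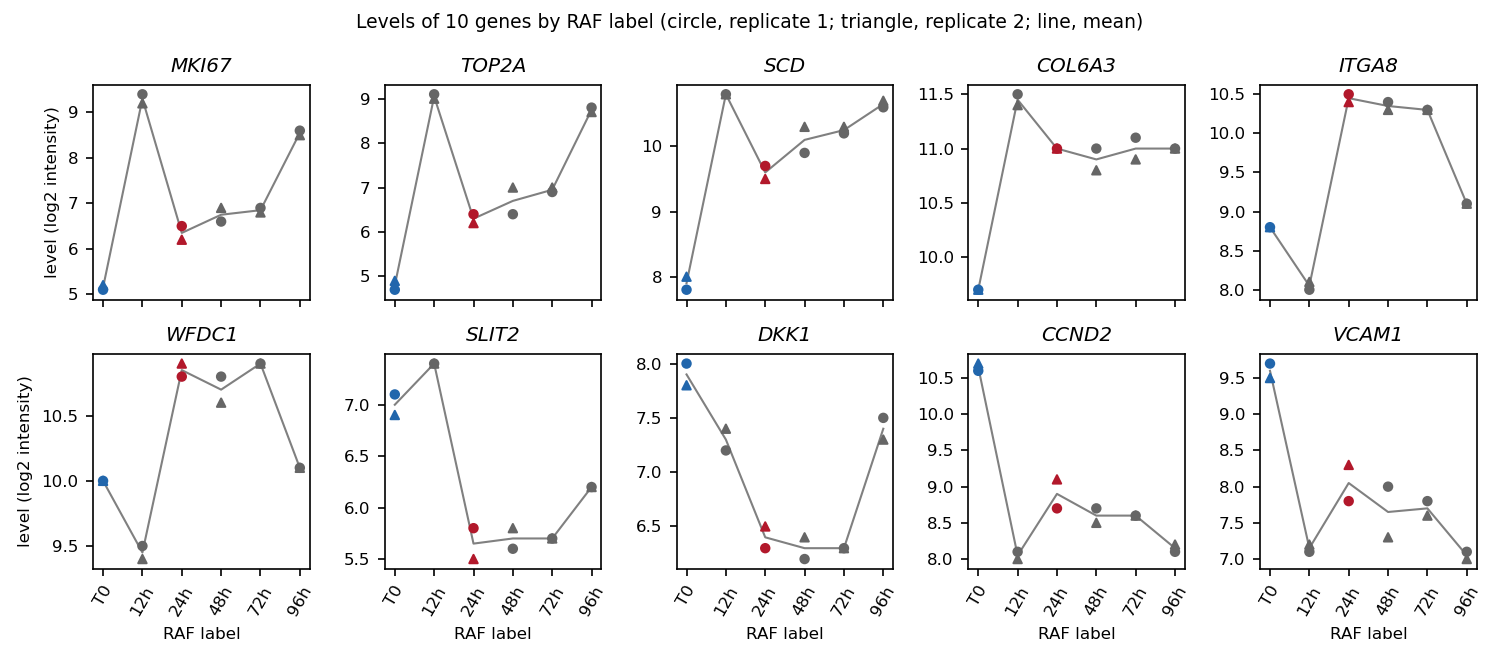
Levels (log2 intensity) of 10 genes over the RAF labels, in time order; circles are replicate 1, triangles replicate 2 and the line joins means, with RAF 24 h in red and RAF T0 in blue. MKI67 and TOP2A peak at 12 h and stand low at 24 h, while ITGA8 is high from 24 to 72 h and SLIT2 and DKK1 are low over the same times.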

How the data were processed

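RNA of WI-38 cells was measured on HTA 2.0 arrays. The deposited values, 1 per feature and array, are the authors' processed values and were read as log2 intensities from their range (-1.6 to 14.0). Nothing used here states the log base, the summarisation or the normalization (not given in the sources used here). The probe table gave a single symbol to 21055 features, several to 1406 and no symbol to 29868. The feature with the highest mean over the 30 arrays stood for its gene. Of 865 members of 33 gene lists, 755 had a named feature.

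Arrays were grouped by their labels. One limma 3.58.1 fit in R 4.3.3 (lmFit, eBayes, two-sided) took in all 12 arrays with a RAF label, in 6 groups of 2. P-values were adjusted by Benjamini and Hochberg's method across the 52329 features, with a threshold of 0.05. The script was tested on simulated data: directions and sizes came back correctly, but many changes of the size typical here were missed, so a gene that did not pass may still differ. An earlier version of that test required nearly complete recovery of smaller changes and was not met; its conditions were then set on direction, size and false calls. For each feature the p-values rest on a spread pooled over the 6 RAF groups of 2 arrays, which need not match that of the 4 arrays compared. Precision is limited by how few arrays there are.

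Named genes were the 15 largest rises and 15 largest falls whose groups did not overlap, up to 4 members that passed per list and direction, and a fixed set of 24 genes, 22 of which had a feature. A further part of the rule, for genes at 24 h outside T0, 12 h and 48 h, named none. Members and lists were chosen with earlier results of these data known. The genes outside both T0 and 12 h, those opposite at 12 h and 24 h, the families picked by symbol, the promoter windows and motifs and 2 of the alternatives were added after values were seen. Promoters came from RefSeq. Same-numbered arrays did not pair between 24 h and T0, where their deviations correlated at -0.01. Over the 15 pairs of groups these correlations ran from -0.06 to 0.36, with 3 over 0.1, so some RAF groups shared replicate structure.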

Additional observations from a re-analysis of the deposited data

Results flagged for a closer look

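Some features moved in opposite directions at 12 h and at 24 h against T0, with the difference between the times itself passing limma's test at an adjusted p under 0.05. There were 41 such features of 52329 (0.0784%): 19 were higher than T0 at 24 h and lower at 12 h, and 22 the reverse. ITGA8 differed by 2.40 between 24 h and 12 h, WFDC1 by 1.40, FRY by 1.10 and FLT1 by 1.10. SLIT2 differed by -1.75 and ABCC9 by -0.85. All are 24 h minus 12 h on the log2 scale, and the comparisons share arrays. FRY had 8.1 and 8.0 at 24 h, against 7.6 and 7.5 at T0, with a 12 h mean of 6.95. ABCC9 had 4.0 and 4.1 at 24 h, against 4.5 and 4.4 at T0, with a 12 h mean of 4.90. No test for outlying arrays was run, since a group held only 2.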

How the results depend on the processing

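The count of 3089 features between 24 h and T0 was 4829 in a fit over all 30 arrays and 1936 in one of the arrays labelled RAF T0, 24 h, 48 h and 72 h, an alternative chosen after seeing the data. It lay between 1195 and 1378 with 1 of the 4 arrays left out, and was 2860 with the replicate number as a block (replicate block), 4521 with only the 4 arrays, 3136 after quantile normalization, 3699 without dim features, 3661 with a trended robust prior and 2723 without RAF 12 h, also chosen after seeing the data. Of the 4521, 974 were among the 3089 in the same direction. Between 24 h and 12 h, 6584 features passed, 3551 to 4426 with 1 array left out and 6554 with the block. Between 48 h and 24 h, 0 passed, 107 in the fit over all 30 arrays, 20 without dim features and 0 to 5 with 1 array left out. The cause was not tested, apart from the fewer arrays. Of 178 named genes, 161 passed and none reversed under any of these alternatives; 96 lost the call with only 4 arrays, 51 to 65 with 1 left out, 47 in the fit of RAF T0, 24 h, 48 h and 72 h, 13 with the block, 10 without RAF 12 h, 6 over 30 arrays and 1 after quantile normalization. Not every gene that lost the call in some fit is marked where it is named. NFKBIA, MTHFD2 and SNORD113-4, for example, lost it with only the 4 arrays, in the fit of RAF T0, 24 h, 48 h and 72 h, and in other fits. Steps of 0.1 limit small differences, and no background call was made for dim features.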

Other observations

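Several gene families not described above were picked by their symbols after the values were seen, so their counts are descriptions. Solute carriers, which move small molecules across membranes, fell in 43 and rose in 7 of 345 measured genes, against 5.34% and 3.44% of named genes; 17 to 26 passed with 1 array left out. Of 80 other box C/D small nucleolar RNAs, which guide methylation of ribosomal RNA, 22 fell and 2 rose, with a median difference of -0.28. With only the 4 arrays, 10 of the 80 passed. Of 62 box H/ACA RNAs, which guide pseudouridylation, 6 fell and 2 rose, and between 0 and 3 passed with 1 array left out. Spliceosomal small nuclear RNAs and their copies passed in 11 of 149 (7.38%), all higher, where 3.44% of named genes rose and 5.34% fell. Fewer passed in the fits with 1 array left out.

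Of 6 type IV collagen chains, the network formers of basement membranes, 4 rose, with a median difference of 0.52, and 1 to 3 passed with 1 array left out. Of 20 semaphorins, guidance ligands, 6 fell and 1 rose (35%, against 8.77%), and 3 to 5 passed with 1 array left out, or 2 with only the 4 arrays. MicroRNA precursors seldom passed: 17 of 635 (2.68%), under the 8.77% of all named genes, and 29 passed with only the 4 arrays.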
